A study of Mus musculus with 3 samples.

Results

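Receptors and surface proteins that endothelial cells and blood stem cells share were examined in sorted mouse haematopoietic stem cells. The 10 genes were fixed by name, namely Tek, Tie1, Kdr, Flt1, Flt4, Esam, Robo4, Procr, Cdh5 and Pecam1, out of 19938 genes measured. Each had 1 probe set of its own on the array, and 0 of the 10 shared a probe set with another gene. The data came from 3 arrays of wild-type C57Bl/6 mice aged 6 to 10 weeks, here named arrays 1, 2 and 3 by replicate number. The sorted bone marrow cells, named KLS SLAM, were Lin-, c-Kit+, Sca-1+, CD150+, CD48- and CD41-, a gate rich in stem cells that can repopulate marrow over the long term. No other genotype or treatment was analysed here, and the labels do not say whether the arrays came from separate animals or from pooled animals. The spread between arrays may therefore be technical.

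Blood stem cells arise in the embryo from haemogenic endothelium, and adult stem cells carry several surface proteins first known from vessels. TEK, also called TIE2, is the receptor kinase of the angiopoietins, and TIE1 is its partner in the membrane. KDR, FLT1 and FLT4 are the VEGF receptor kinases that guide the growth of blood and lymph vessels. ROBO4 is an endothelial member of the Roundabout family of guidance receptors, PROCR binds protein C, and ESAM, CDH5 (VE-cadherin) and PECAM1 join endothelial cells to each other. Antibodies to PROCR, ESAM and TEK have been used to enrich mouse stem cells.

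Signal was read as log2 of the deposited intensity. Probe sets differ in affinity, so the levels of different genes were not ranked against each other. Each value was instead set against a limit on the same array, the 95th percentile of 1229 olfactory, vomeronasal and taste receptor genes (the sensory receptor genes), which serve smell and taste. Arrays 1, 2 and 3 had limits of 6.30, 5.98 and 5.77 log2. A gene counted as above background when it passed the limit on all 3 arrays. A gene below the limit is not shown to be absent.

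Of the 10 genes, 6 were above background and 4 were below the limit on every array. The 6 were Tek, Tie1, Esam, Robo4, Procr and Pecam1, and the 4 were Kdr, Flt1, Flt4 and Cdh5. Over all 19938 genes, 36.8% were above background, and 42% were below the limit on every array. Counts of the lists below are to be read beside these shares. All genes include the 1229 sensory receptor genes that set the limit, of which 2.52% were above background. The share of all genes above background is therefore somewhat lower than it would be without them. The median of the 10 genes' means was 6.24 log2, beside 5.96 over all genes, which is a description only, since probe affinities differ. These counts carry no test. None of the 10 passed the limit on some arrays and missed it on others, so that 6 of 10 passed on each single array, beside 39.3%, 49.1% and 55.2% of all genes on arrays 1, 2 and 3. With the 90th percentile as the limit, which can only add genes, the count on all arrays was again 6 of 10, beside 50.6% of all genes. With the 99th percentile of the same sensory receptor genes as the limit, 0 of the 10 genes were above it on all arrays, beside 17.4% of all genes. Procr and Tie1 missed that limit on array 1 alone, Tie1 passing narrowly on array 2 with 6.69 against 6.67. Pecam1 passed it on array 3 alone.

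**Figure D1:**
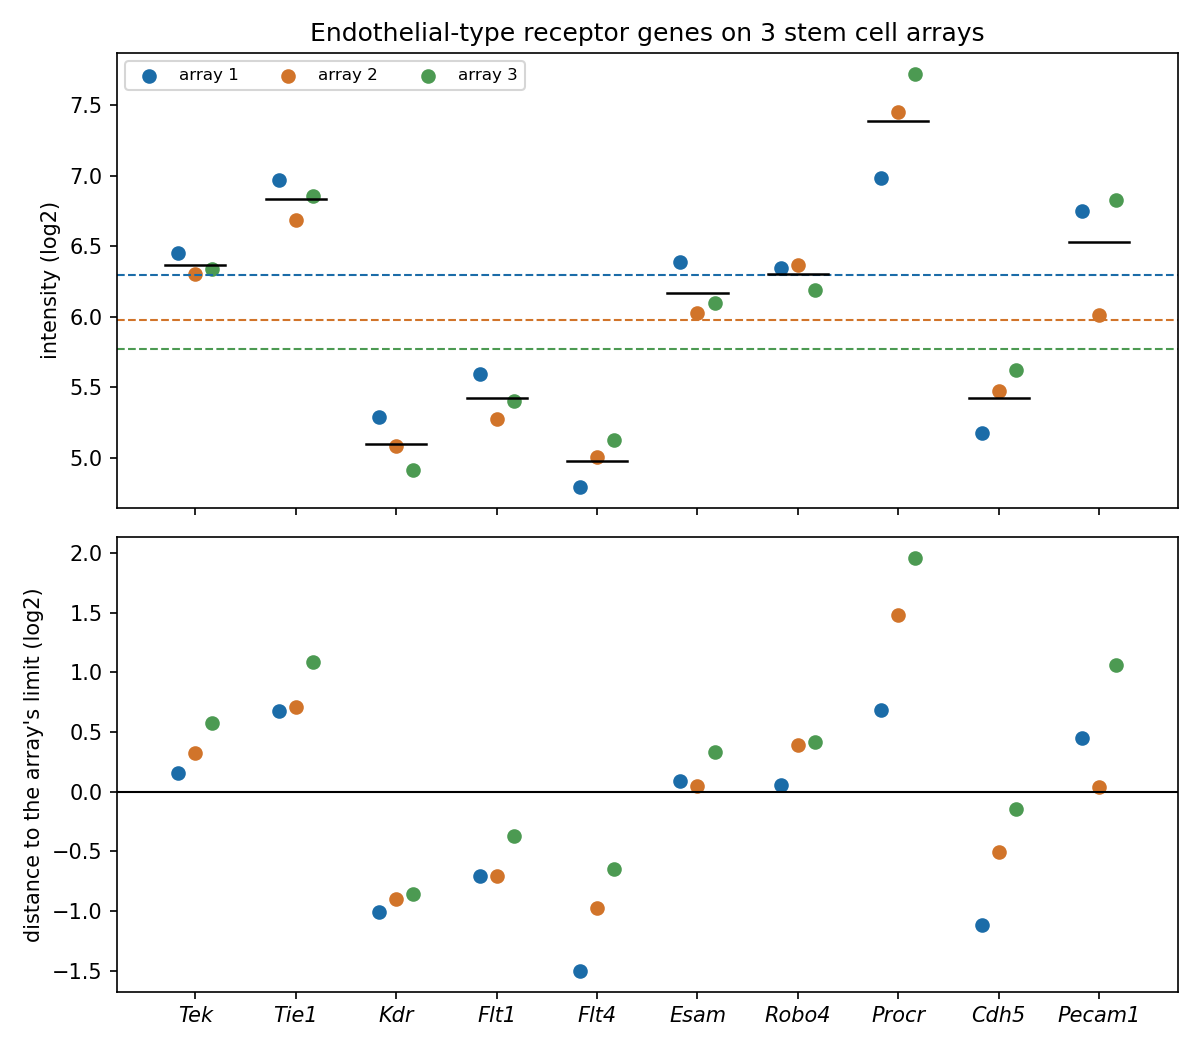
The upper panel plots intensity (log2) of the 10 genes on arrays 1, 2 and 3, with the mean as a black bar and the limit of each array as a dashed line of the same colour. The lower panel plots the distance of each value to its array's limit (log2), and Tek, Tie1, Esam, Robo4, Procr and Pecam1 lie above 0 on all 3 arrays while Kdr, Flt1, Flt4 and Cdh5 lie below it.

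Both TIE receptors were above background, and their values differed little between arrays. Tek was at 6.45, 6.30 and 6.34 log2 on arrays 1, 2 and 3, or 6.37 ± 0.08 (SD, n = 3), and lay 0.16, 0.32 and 0.57 above the limits. Tie1 was at 6.97, 6.69 and 6.85, or 6.84 ± 0.14, and lay 0.67, 0.71 and 1.09 above the limits. The highest and lowest arrays differed by 1.11-fold for Tek and 1.21-fold for Tie1. The share of sensory receptor genes at least as bright as Tek was 3.58%, 2.28% and 1.38% on the arrays. For Tie1 it was 1.3%, 1.06% and 0.407%.

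Of 7 ligand and partner genes measured for the TIE pathway, 2 were above background and 5 were below the limit on every array. Over all genes these shares were 36.8% and 42%. Angpt1, the activating ligand of TEK, was at 10.23, 10.63 and 10.65 log2, or 10.50 ± 0.24, and lay 3.94 or more above each limit. Dok2, an adaptor that binds the activated receptor, was at 6.57 ± 0.11. Angpt1 was thus measured far out of the background range in the same sorted cells as the gene of its receptor, and of the 7 it was the only gene that also passed the 99th percentile limit. Angpt2, a ligand that can oppose it, was at 5.27 ± 0.18, and Angpt4 at 5.71 ± 0.21. Ptprb, the endothelial phosphatase that acts on TEK, was at 5.41 ± 0.18. Svep1 and Grb14 were at 5.53 ± 0.16 and 5.59 ± 0.16.

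All 3 VEGF receptors were below the limit on every array. Kdr, the main VEGF-A receptor of endothelium, was at 5.29, 5.08 and 4.91 log2, or 5.09 ± 0.19 (SD, n = 3). Flt1, which binds VEGF-A, VEGF-B and placental growth factor, was at 5.59, 5.27 and 5.40, or 5.42 ± 0.16. Flt4, the VEGF-C receptor of lymphatic endothelium, was at 4.79, 5.0 and 5.12, or 4.97 ± 0.17. Their values lay well inside the range of the sensory receptor genes. On the arrays, 21.2% to 22.5% of those genes were at least as bright as Kdr, 9.93% to 18.3% as Flt1 and 15.9% to 35.6% as Flt4.

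The ligand genes Vegfa and Vegfb were above background in the same cells. Of 10 VEGF ligand, co-receptor and effector genes, 3 were above background and 5 below the limit on every array. The shares over all genes were 36.8% and 42%. Vegfa was at 7.16, 6.50 and 7.0 log2, or 6.89 ± 0.34, and Vegfb at 7.37, 7.13 and 7.25, or 7.25 ± 0.12. Plcg1, a phospholipase that many receptor kinases activate, was at 6.83 ± 0.44. The lymphatic ligands and placental growth factor were not above background, with Vegfc at 5.92 ± 0.19, Vegfd at 5.61 ± 0.11 and Pgf at 5.13 ± 0.12. The co-receptor genes Nrp1 and Nrp2 were below the limit on every array at 5.52 ± 0.13 and 5.65 ± 0.13. The adaptor genes Shb and Sh2d2a were at 6.04 ± 0.18 and 4.69 ± 0.36. Of the 10, Vegfb was the only gene that also passed the 99th percentile limit.

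**Figure D2:**
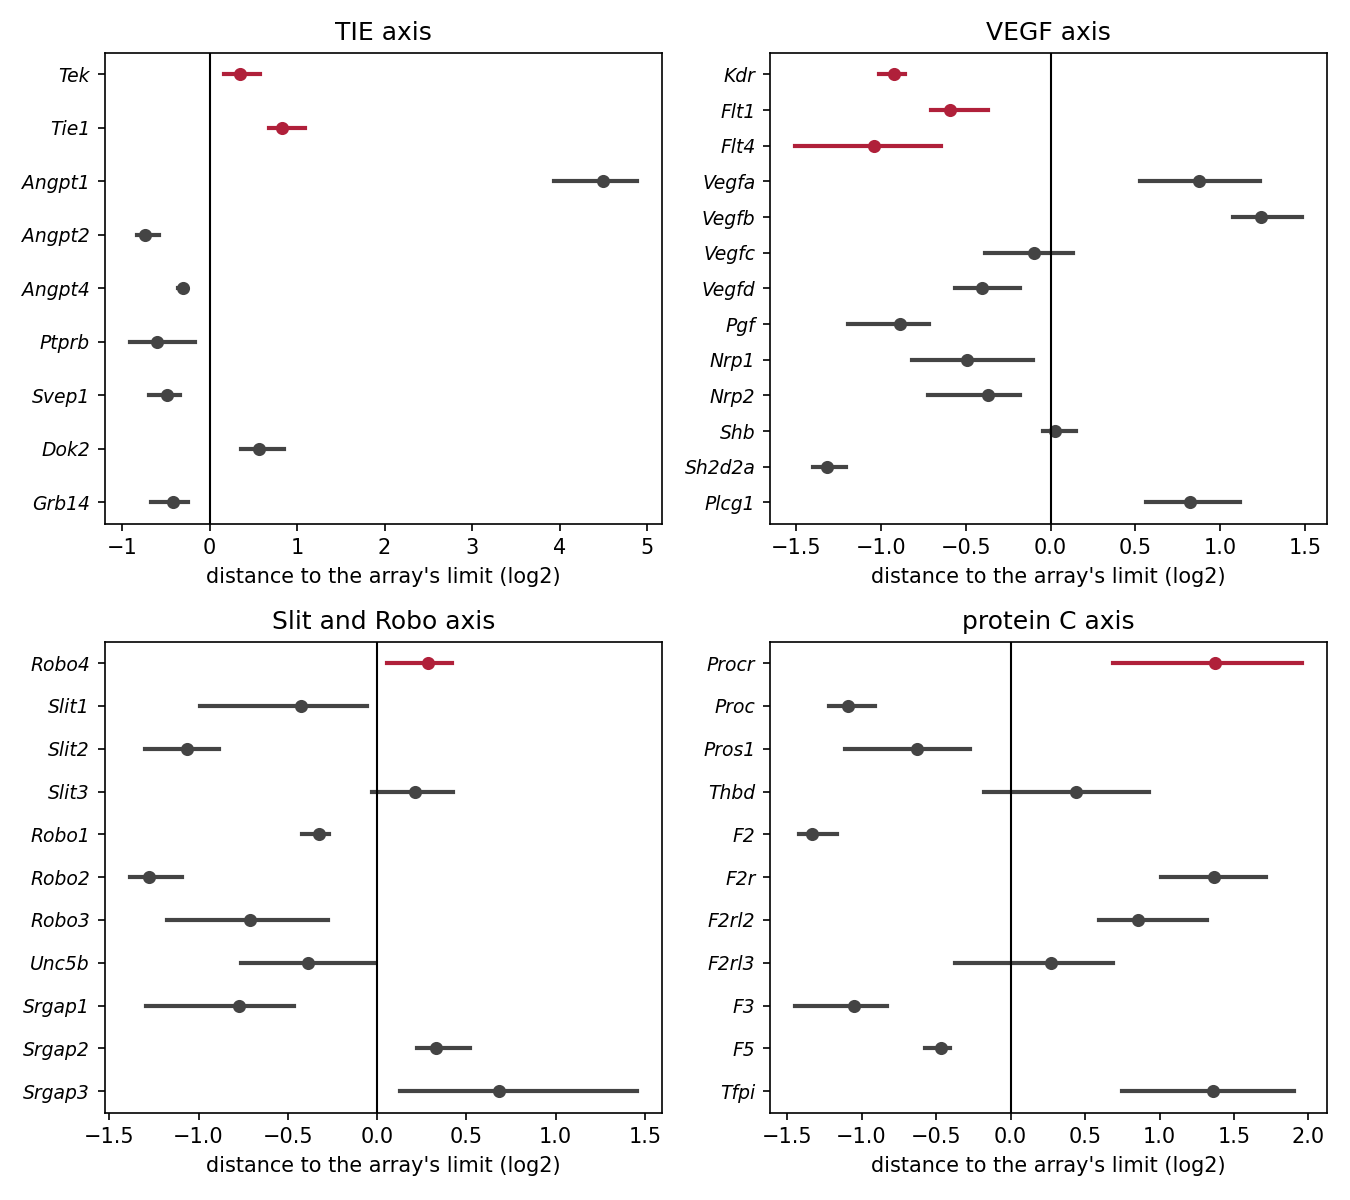
Distance to the array's limit (log2, horizontal axis) for the receptors (red) and the ligand, partner and effector genes (grey) of 4 pathways; a point is the mean over 3 arrays and a bar runs from the lowest to the highest array. The bars of Tek, Tie1, Robo4, Procr, Angpt1, Vegfa and Vegfb lie to the right of 0, and those of Kdr, Flt1 and Flt4 to the left.

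Procr, the protein C receptor gene, was above background on each array with a wide margin on arrays 2 and 3. It was at 6.98, 7.45 and 7.72 log2, or 7.39 ± 0.38 (SD, n = 3), which is 0.69, 1.48 and 1.96 above the limits. Array 1 was the low one, and the highest and lowest arrays differed by 1.67-fold. The share of sensory receptor genes at least as bright was 1.3%, 0.244% and 0.0814%. PROCR presents protein C to thrombin bound by thrombomodulin, and it lets activated protein C act on protease-activated receptors.

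Of 10 measured genes of the protein C pathway, 3 were above background and 5 below the limit on every array. The shares over all genes were 36.8% and 42%. F2r, which encodes the thrombin receptor PAR1, was at 7.31, 7.34 and 7.48 log2, or 7.38 ± 0.09, and passed the 99th percentile limit too. F2rl2, which encodes PAR3, was at 6.87 ± 0.47, and Tfpi, the tissue factor pathway inhibitor gene, at 7.37 ± 0.45. These 3 were the genes above background. Thbd, which encodes thrombomodulin, missed the limit on array 1 alone with 6.12, 6.90 and 6.35, and so did F2rl3 (PAR4) at 6.28 ± 0.31, so that 5 of 10 were above background without array 1, beside 46.9% of all genes. Proc and F2, the protein C and prothrombin genes expressed in liver, were below the limit on every array at 4.92 ± 0.13 and 4.68 ± 0.17. So were F5 at 5.55 ± 0.29, Pros1 (protein S) at 5.38 ± 0.69 and F3 (tissue factor) at 4.96 ± 0.13.

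Robo4 was just above background. It was at 6.35, 6.37 and 6.19 log2, or 6.30 ± 0.10 (SD, n = 3), and cleared the limits by 0.05, 0.39 and 0.42. Its 3 paralogues were below the limit on every array, with Robo1 at 5.69 ± 0.19, Robo2 at 4.74 ± 0.18 and Robo3 at 5.30 ± 0.19. With these, 10 other genes of the pathway were measured. Of the 10, 2 were above background and 7 below the limit on every array, beside 36.8% and 42% of all genes. The 2 were Srgap2 at 6.34 ± 0.42 and Srgap3 at 6.70 ± 0.46, which encode GTPase-activating proteins that bind Robo receptors, while the related Srgap1 was at 5.24 ± 0.21. The secreted ligand genes were not above background, with Slit1 at 5.59 ± 0.31, Slit2 at 4.95 ± 0.17 and Slit3 at 6.22 ± 0.04. Slit3 missed on array 1 alone, by 0.03. Unc5b, which encodes a receptor that ROBO4 binds on endothelium, was at 5.62 ± 0.30.

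Of the 3 genes of cell-to-cell junctions, Esam and Pecam1 were above background and Cdh5 was not. Esam, an immunoglobulin-type adhesion protein of tight junctions and platelets, was at 6.39, 6.02 and 6.10 log2, or 6.17 ± 0.19 (SD, n = 3), and cleared the limits by 0.09, 0.05 and 0.33. Pecam1, an immunoglobulin-type receptor of endothelium, platelets and leukocytes, was at 6.75, 6.02 and 6.83, or 6.53 ± 0.45. Array 2 was the low one, where Pecam1 cleared the limit by 0.04, against 0.45 and 1.06 on arrays 1 and 3. Cdh5, the cadherin of endothelial adherens junctions, was at 5.18, 5.47 and 5.62, or 5.42 ± 0.23, and lay 0.14 below the limit on array 3. The share of sensory receptor genes at least as bright as Cdh5 was 25.1%, 12.6% and 6.67% on the arrays.

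Genes of proteins that act with these 3 were measured as well. Of 7 PECAM1 partners and related signalling genes, 7 were above background. Among them were Ptpn11 at 7.20 ± 0.31 and Ptpn6 at 8.60 ± 0.32, which encode phosphatases recruited to inhibitory receptors, Inpp5d at 7.60 ± 0.39 and Cd177, a binding partner on neutrophils, at 6.88 ± 0.21. Such signalling genes serve many receptors of blood cells. Of 13 junction partners, 6 were above background, including the catenin genes Ctnnb1 at 7.80 ± 0.13, Ctnna1 at 7.11 ± 0.16 and Ctnnd1 at 7.48 ± 0.32. Jup, or plakoglobin, was at 6.28 ± 0.29 and missed on array 1 alone.

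Spread between arrays was then tested for each gene against the spread of genes of the same level. By limma's variance test over 19938 genes with Benjamini-Hochberg adjustment, 0 of the 10 genes varied beyond that trend, and 0 of all genes did (0% called). At an unadjusted p under 0.05 by limma, 1017 genes or 5.1% were called and 0 of the 10. The trend was fitted to these same genes. A share near the threshold before adjustment, and few or no calls after it, therefore follow largely from the fit. Pecam1 had the smallest adjusted p of the 10, with an SD of 0.45 against a trend of 0.25 (limma, adjusted p = 0.983), and its highest and lowest arrays differed by 1.75-fold. Procr had an SD of 0.38 against 0.33 (limma, adjusted p = 0.997). Tek had the smallest SD of the 10, 0.08 against a trend of 0.24. The SD of 7 of the 10 genes lay under the trend, beside 56.2% of all genes, and their median SD was 0.18 log2, beside 0.22 over all genes. With 3 arrays, a p that misses the threshold does not show that a gene is constant.

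**Figure D3:**
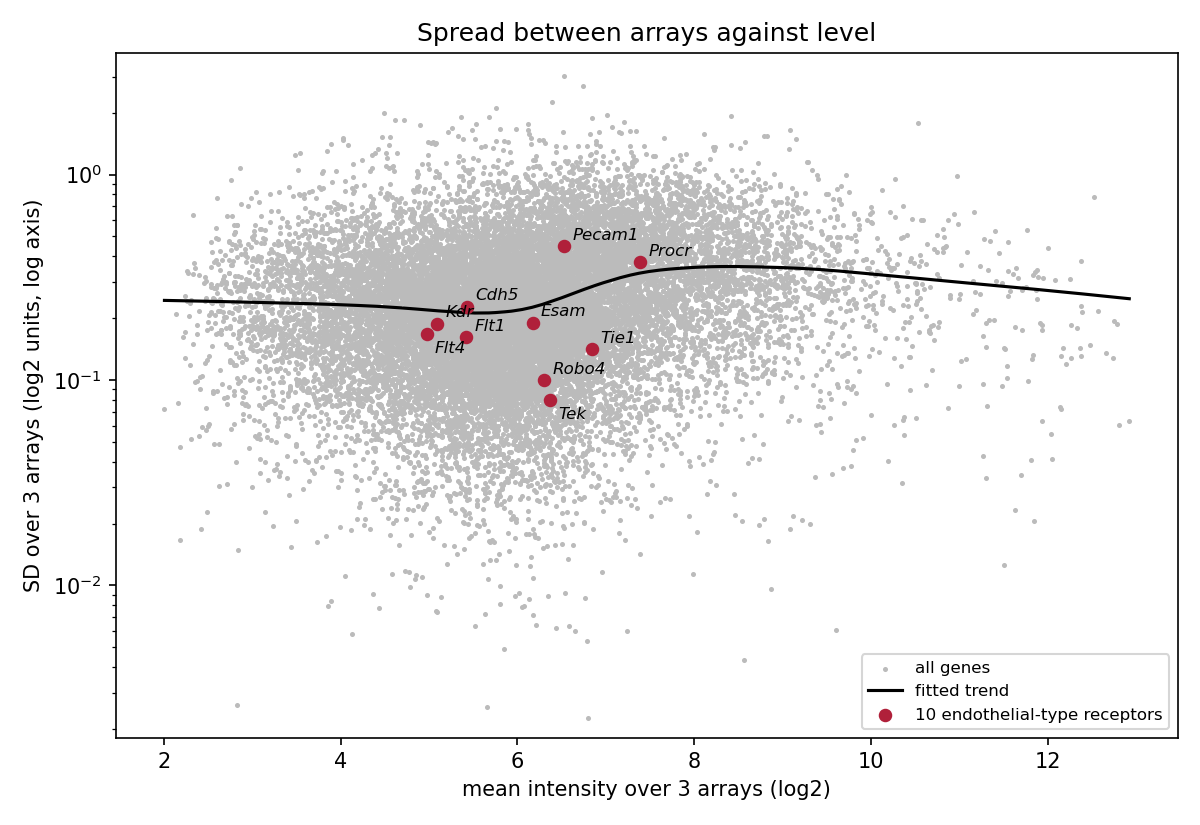
SD over 3 arrays (log2 units, log axis) against mean intensity (log2) for all 19938 genes (grey), with the fitted trend (line) and the 10 genes (red). Pecam1, Procr and Cdh5 lie above the trend and the other 7 below it.

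The 10 genes did not share an order of arrays. Tek, Tie1, Kdr, Flt1 and Esam were highest on array 1, Robo4 on array 2, and Flt4, Procr, Cdh5 and Pecam1 on array 3. Over all genes, 31.6% were highest on array 1, 38.6% on array 2 and 29.8% on array 3. The highest array was the same for 10 of 10 genes after quantile normalization and after median scaling. The limits differed too, and that of array 1 lay 0.53 log2 above that of array 3. Since the distance is the value less the limit, the lower limit on array 3 raises the distance of every gene there. Measured from the limit, 10 of 10 genes had their highest value on array 3 and 7 of 10 their lowest on array 1. Over all genes, 39.3%, 49.1% and 55.2% passed the limit on arrays 1, 2 and 3. The counts by distance thus hold the fall of the limit as well as the genes' own values, and are no separate result about the 10 genes. The mean deviation of the 6 genes above background was 0.05, -0.12 and 0.07 log2 on arrays 1, 2 and 3. The genes nearest to that pattern were Rpa2, Tra2a and Dock2, at Euclidean distances of 0.0031, 0.0039 and 0.011 log2 over 3 arrays, and 85 of 7339 genes lay within 0.05 of it. The 6 genes did not share that mean pattern. Tek, Tie1, Esam and Pecam1 were lowest on array 2, Procr on array 1 and Robo4 on array 3. Nearness to the mean is thus not nearness to each of the 6.

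Other surface proteins of endothelium and stem cells, and transcription factors of both, were counted in the same way. Of 14 further surface proteins, 10 were above background, among them Cd34 at 8.48 ± 0.45 log2, Eng, or endoglin, at 7.26 ± 0.04 and Mcam at 6.58 ± 0.04. Those not above background were Prom1 at 5.48 ± 0.34, Vcam1 at 5.81 ± 0.48, Podxl at 6.27 ± 0.18 and Acvrl1 at 6.19 ± 0.02. Podxl and Acvrl1 missed on array 1 alone. Of 15 transcription factors, 9 were above background, including the blood and vessel regulators Tal1 at 7.21 ± 0.07, Lmo2 at 9.83 ± 0.05, Gata2 at 7.43 ± 0.14 and Erg at 9.39 ± 0.07. The other 6 were factors known from endothelial development, namely Sox17 at 5.07 ± 0.34, Sox18 at 5.98 ± 0.10, Sox7 at 5.37 ± 0.23, Etv2 at 5.65 ± 0.18, Nr2f2 at 5.78 ± 0.08 and Prox1 at 4.77 ± 0.12. Sox17, Sox7, Etv2 and Prox1 were below the limit on every array.

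Markers of the sorted cells and of mature endothelium were set beside these results. Of 11 measured stem cell markers, 9 were above background, with Kit at 10.01 ± 0.23 log2, Slamf1 at 6.51 ± 0.13, Mecom at 8.09 ± 0.22 and Hlf at 10.49 ± 0.30. Hoxb5 and Rarb were not, at 6.33 ± 0.27 and 5.60 ± 0.17. Of 20 endothelial markers, 6 were above background and 7 were below the limit on every array. The 6 included genes also known from stem cells or platelets, Emcn (endomucin) at 7.30 ± 0.56, Egfl7 at 7.65 ± 0.11 and Vwf at 6.42 ± 0.14. The others were Ecscr at 6.88 ± 0.17, Stab2 at 6.15 ± 0.14 and Gpihbp1 at 6.51 ± 0.09. Of the 20, Egfl7 was the only gene that also passed the 99th percentile limit.

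The 7 endothelial markers below the limit on every array, as Cdh5 was, were Mmrn2 at 5.28 ± 0.15, Clec14a at 5.05 ± 0.61, Ramp2 at 5.52 ± 0.13, Stab1 at 5.56 ± 0.16, Lyve1 at 5.61 ± 0.08, Cdh13 at 5.27 ± 0.13 and Tm4sf1 at 4.89 ± 0.73. Plvap at 5.93 ± 0.15, Rasip1 at 5.70 ± 0.18, Nos3 at 5.86 ± 0.11, Apold1 at 5.96 ± 0.09, Aqp1 at 6.43 ± 0.37 and Sele at 6.02 ± 0.47 passed it on some arrays. Fabp4, which vessels and fat cells express, was at 5.57, 6.53 and 7.87 on arrays 1, 2 and 3, or 6.66 ± 1.15. The mean of the 20 markers was 5.90, 6.02 and 6.18 on the arrays, highest on array 3, as Procr, Cdh5, Flt4 and Pecam1 were. The stem cell markers, with means of 7.83, 7.90 and 7.93, and the transcription factors, with 7.18, 7.28 and 7.31, were highest on array 3 as well. Their means rose less from array 1 than that of the endothelial markers, but the 20 markers had no common order. From array 1 to array 3, Fabp4, Tm4sf1, Clec14a and Emcn rose by 2.30, 1.46, 1.15 and 1.09 log2. Plvap, Ecscr, Mmrn2, Vwf, Stab1, Stab2, Lyve1, Cdh13 and Sele were lower on array 3 than on array 1. Of the 10 receptors, 5 were highest on array 1. The part of endothelial cells in the values of the 10 genes was not tested. Without array 1 the count of endothelial markers above background was 10 of 20, beside 46.9% of all genes. That of the 10 receptors was 6, which leaving out an array could not change.

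Markers of other blood and marrow cells were read in the same way. The gate (Lin- and CD41-) is meant to exclude mature granulocytes and cells with CD41 on their surface. Of 7 platelet and megakaryocyte markers, 4 were above background, among them Pf4 at 7.23 ± 0.45 and Gp9 at 6.43 ± 0.32, while Ppbp at 6.22 ± 0.54, Gp5 at 6.42 ± 0.63 and Clec1b at 3.77 ± 0.26 were not. Their mean was 6.12, 6.06 and 6.36 on arrays 1, 2 and 3, but the markers had no common order: Ppbp, Gp9 and Treml1 were lowest on array 2, Pf4 and Gp5 on array 1, and Itga2b and Clec1b on array 3. Of the 10 receptors, the platelet-expressed Esam and Pecam1 were lowest on array 2, and so were Tek, Tie1 and Flt1. Of 10 granulocyte markers, 9 were above background, including S100a8 at 12.08 ± 0.31, S100a9 at 12.37 ± 0.38, Ngp at 10.26 ± 0.96 and Camp at 9.11 ± 0.63, with Elane at 6.18 ± 0.34 not above it. Their mean was 8.58, 9.49 and 9.32, lowest on array 1 and highest on array 2. Procr, Flt4 and Cdh5 were lowest on array 1 too but highest on array 3. The means of the stem cell and endothelial lists were also lowest on array 1. Of 8 stroma markers, 3 were above background, Cxcl12 at 6.37 ± 0.32, Col1a1 at 6.74 ± 0.18 and Col1a2 at 6.74 ± 0.03, with Lepr at 4.0 ± 0.10. Of 9 genes listed as markers against the gate, 3 were above background, Itga2b (CD41) at 6.37 ± 0.14, Ly6g at 6.92 ± 0.66 and Ptprc at 9.69 ± 0.19, the last being common to blood cells. Cd48 and Cd3e were not, at 5.46 ± 0.77 and 6.09 ± 0.31. The part of other cells in the values of the 10 genes was not tested, and fewer cells of a type and less RNA per cell cannot be told apart here.

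**Figure D4:**
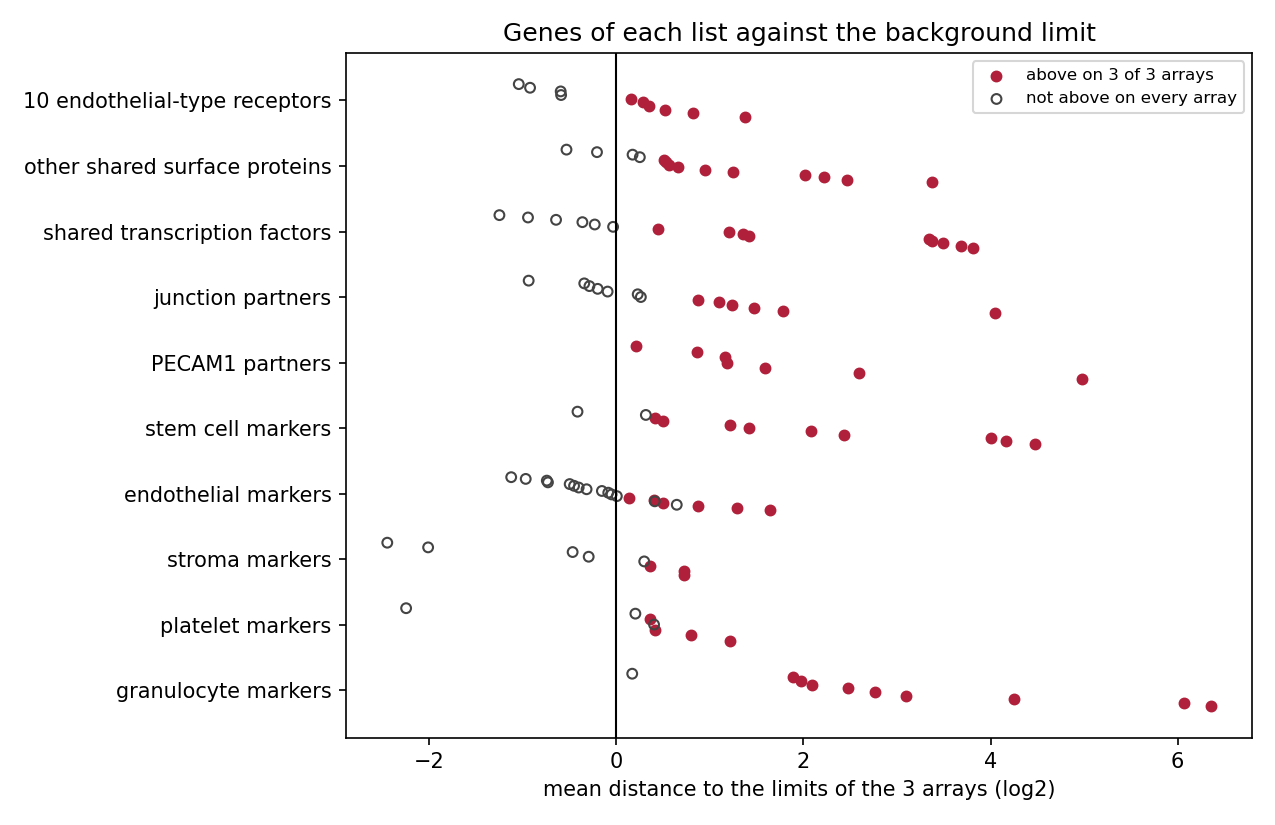
Mean distance to the limits of the 3 arrays (log2, horizontal axis) for each gene of 10 lists; filled points passed the limit on all 3 arrays and open points did not, and points are offset vertically for legibility. Of the 10 endothelial-type receptors 6 are filled, of the stem cell markers 9 of 11 and of the endothelial markers 6 of 20.

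Gene order on the chromosomes, which played no part in the choice, placed several of the 10 beside other receptor genes. By RefSeq (GRCm38.p6), Kdr followed Pdgfra and Kit. Kit, the stem cell factor receptor gene, was at 10.28, 9.92 and 9.85 log2 on arrays 1, 2 and 3, while Pdgfra, at 5.55 ± 0.10, and Kdr were below the limit on every array. The calls thus differed within a row of related kinase genes. On its other side Srd5a3 was at 5.90 ± 0.21. Flt1 lay after Flt3 and Pan3. Flt3, the cytokine receptor gene of early progenitors, was at 7.91 ± 0.22 and Pan3 at 8.78 ± 0.02, and the gene on the other side, the proteasome assembly gene Pomp, was at 9.85 ± 0.61. Flt1 was thus below the limit between genes above background.

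Robo4 and Esam lay close together on chromosome 9, with Robo3 and Msantd2 between them. Robo4 and Esam were above background, as was Msantd2 at 7.71 ± 0.23, while Robo3 was below the limit on every array. Beyond Esam, Vsig2 was at 6.82 ± 0.41, and before Robo4, Hepacam was at 4.91 ± 0.32. Beside Tie1, 2610528J11Rik was at 5.21 ± 0.16. Tek lay between Lrrc19 at 5.56 ± 0.09 and Eqtn at 4.38 ± 0.25, both below the limit on every array. Procr lay between Edem2 at 6.82 ± 0.42 and Mmp24 at 5.71 ± 0.15. Pecam1 lay between Tex2 at 7.17 ± 0.15 and Milr1, which was at 5.95, 7.42 and 6.71 and so highest on the array where Pecam1 was lowest. Cdh5 lay between Cdh11 at 5.75 ± 0.18 and Bean1 at 6.23 ± 0.15, and Flt4 between 1700024J04Rik at 5.76 ± 0.54 and Scgb3a1 at 5.81 ± 0.07. Of the 19 immediate neighbours measured, 8 were above background.

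Promoter sequence came from RefSeq (GRCm38.p6) and matched 7 of the 10 genes, as windows of 300 bases running from 250 before to 50 after a transcript start. The part before the annotated gene is shown for 3 of them, to set Tie1 and Robo4, above background, beside Flt4, below it. Tie1 is at chr4:118489850-118490099 on the minus strand, Robo4 at chr9:37401722-37401901 on the plus strand and Flt4 at chr11:49609429-49609678 on the plus strand. Each is written from 5′ to 3′ along its gene, with matches to the searched motifs in capitals.
Tie1: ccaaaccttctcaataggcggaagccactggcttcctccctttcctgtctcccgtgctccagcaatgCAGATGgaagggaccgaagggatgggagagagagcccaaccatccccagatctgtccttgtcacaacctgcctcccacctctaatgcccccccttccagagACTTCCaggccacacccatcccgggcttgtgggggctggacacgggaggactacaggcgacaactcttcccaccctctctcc
Robo4: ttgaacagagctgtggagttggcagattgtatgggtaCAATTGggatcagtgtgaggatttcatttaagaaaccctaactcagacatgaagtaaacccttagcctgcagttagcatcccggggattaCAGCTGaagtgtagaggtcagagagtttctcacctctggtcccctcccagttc
Flt4: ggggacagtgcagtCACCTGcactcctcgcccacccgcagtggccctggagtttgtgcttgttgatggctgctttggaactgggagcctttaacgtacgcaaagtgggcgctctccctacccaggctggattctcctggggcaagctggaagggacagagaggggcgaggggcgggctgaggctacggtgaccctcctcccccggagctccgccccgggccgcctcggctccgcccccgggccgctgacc
The search covered 4 short motifs on both strands, and no match of one overlapped a match of another in these 7 windows. GGAAGT, the core bound by ETS factors, was in the windows of Tie1, Kdr and Flt1, 3 of 7, beside 23.8% of all 32851 windows. In Tie1 it reads ACTTCC, its form on the other strand, and starts 82 bases before the transcript start. It was thus present in 1 gene above background and in 2 below the limit. The E-box CANNTG, bound by TAL1 and other helix-loop-helix factors, was in 6 of 7, all but Flt1, beside 72.3% of all windows. The motif AGATAA, which blood regulators such as GATA2 bind, was in the window of Tek alone, beside 11.2% of all. The start-site box TATAAA was in that of Flt1 alone, beside 13.6% of all. The windows of Flt1 and Flt4 held 70.7% and 70.3% G and C, and those of Kdr and Tie1 60.7% and 60.3%. That of Procr held 58.3%, that of Tek 52%, that of Robo4 50.3%, and the median window 52.7%. A match is a description of letters and not a site of binding.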

How the data were processed

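RNA of sorted cells was amplified, labelled with biotin and hybridised to 3 arrays, per the labels' protocols. Per the submitters' processing notes, the authors used Affymetrix Expression Console and RMA to summarise the probe sets. Not given in the sources used here are its version, the genome build and which arrays shared a normalization. The deposited values were read as linear intensities, since they ran from 2.82 to 18384, and log2 of them was taken with no pseudocount. Median intensities were 60.4, 58.0 and 56.7. RMA removes most array-wide differences in brightness, and the number of arrays limits the precision.

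Of 35554 probe sets, 21789 named 1 gene in the platform annotation, 1621 several and 12144 were not listed there; those with 1 gene were averaged into 19938 genes. For variation, each gene's variance on 2 degrees of freedom was set against a robust trend on level (upper-tail, one-sided variance-ratio F test with 4.34 degrees of freedom for the prior; limma 3.58.1, statmod 1.5.0, R 4.3.3), adjusted by Benjamini-Hochberg at 0.05. Tested on simulated data, it called most changed genes only where their spread was very large, so a count of 0 does not speak of moderate differences. Other values were computed in Python 3.11.15 with pandas 2.3.3. The settings varied were the limit's percentile and gene set, the normalization, the probe set, the variance trend and the arrays used.

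The 10 genes and the 14 lists, with 149 measured genes, were chosen with earlier results of these data known. The text names the 10 genes, the measured genes of the 4 pathway lists and the endothelial list, the first 4 of other lists and those on the rarer side of the limit where these were 5 or fewer, the immediate neighbours and the 3 nearest patterns. Sox17, Sox18, Sox7, Etv2, Nr2f2, Prox1, Treml1, Flt3 and Pdgfra fall outside that rule and were chosen after their values were seen. A planned comparison of the proteins was not run.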

Additional observations from a re-analysis of the deposited data

How the results depend on the processing

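The calls rested on how strict the limit was. With the 99th percentile as the limit, the count of the 10 genes above background was 0, and that of the 149 list genes went from 74 to 39. The lowest distance to that limit was -0.67 log2 for Tek, -0.15 for Tie1, -0.74 for Esam, -0.77 for Robo4, -0.14 for Procr and -0.66 for Pecam1, which follows from the higher limit itself. With the 90th percentile, olfactory receptor genes alone, the mean over arrays, the brightest probe set or quantile normalization, the same 6 genes were above background. With olfactory receptor genes alone, the lowest distances of Robo4, Pecam1 and Esam were only 0.0084, 0.0108 and 0.02 log2. Leaving out each array in turn gave 6 of the 10 genes each time and 74 to 91 list genes. Each of the 10 was above the limit on all arrays or on none. Leaving out an array or taking the mean could therefore not change the 6. The 90th percentile could only add genes, and with 1 probe set per member the brightest probe set could change only the limit. The share of all genes above background ran from 17.4% to 50.6% over these settings. The median of the 10 genes' means was 6.24 log2 and lay between 6.17 and 6.28 without 1 array. In limma's variance test 0 of the 10 genes and 0 of all genes tested were called under each of the 7 alternatives, with the lowest adjusted p of the 10 genes between 0.918 and 0.995. An unadjusted p under 0.05 gave 1022 to 1156 of 19938 genes under 6 of these, and 325 of 7345 where only genes above background, 6 of the 10 among them, were tested. The fit was made anew to the genes tested each time, so these counts too follow largely from the fit. No paired analysis was possible because there is 1 group.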
